A study of Mus musculus with 3 samples.

Results

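Luminal progenitor cells of the mouse mammary gland that carried transcripts of at least 2 of the 4 genes Tnf, Cxcl2, Esm1 and Cytip were taken as a subset and set against the other luminal progenitor cells of the same library. A luminal progenitor cell was a cell with at least 5 unique molecular identifiers (UMIs, each marking 1 captured transcript molecule) of Csn3, Elf5, Kit and Aldh1a3 together, and at least 3 times the UMIs of the basal genes Krt5, Krt14, Krt17 and Acta2 and of the hormone-responsive genes Prlr, Areg, Pgr, Esr1 and Cited1. Members also had the caseins Csn2, Csn1s1 and Csn1s2a at under 3% of their UMIs. Of 26845 barcodes, 26320 passed the filter on cells, 8081 were luminal progenitor cells and 1156 were members, which left 6925 other luminal progenitor cells. All cells came from number 4 mammary glands of untreated female FVB/NJ mice aged 10 weeks. Tissue of 4 mice was pooled and digested, and live epithelial cells were sorted after staining for CD49f, EpCAM, CD31, CD45 and Ter119. The 3 droplet libraries (10x Genomics 3' v2) form 1 group, and whether they come from 1 pool of mice is not given. Any p-value below therefore reflects how these 3 libraries vary, and that variation may be technical. Members were thus chosen by measured values, the UMI counts of the 20 genes of the gate.

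Luminal progenitors are the hormone-receptor-poor luminal cells of the mammary duct, marked by the receptor Kit and the transcription factor Elf5, and they give rise to the milk-secreting alveolar cells. Tnf is an inflammatory cytokine and Cxcl2 a chemokine that attracts neutrophils. Both are known targets of the transcription factor NF-kappaB, which is held in the cytoplasm by the inhibitor Nfkbia. Esm1, or endocan, is a secreted proteoglycan best known from endothelial tip cells, and Cytip is an adaptor that binds cytohesins and is best known from blood cells.

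The libraries held 18584156, 27220670 and 30984706 UMIs, and pairs of libraries shared 77, 129 and 146 barcodes, or 1.15% to 1.93% of the smaller library. Members numbered 142, 285 and 729 in libraries 1, 2 and 3, and other luminal progenitor cells 3080, 1323 and 2522. Library 3 thus held more members than libraries 1 and 2 together. Members were the deeper cells: their median was 4622.5, 4291 and 3941 UMIs, against 2799.5, 3607 and 3212 UMIs in other luminal progenitor cells. Of luminal progenitor genes that the gate did not use, all 31 measured passed the filter on low counts. The sums of the other luminal progenitor cells can meet that filter alone, so passing says nothing on members. Of the 31, 1 was called higher and 4 lower in members, with a median log2 fold change of -0.11. Of the gate genes, Elf5 was at 462, 473 and 548 CPM (counts scaled to the same total in every sum) in members and 552, 564 and 623 CPM in other luminal progenitor cells. Kit was at 312, 316 and 265 CPM in members and 320, 260 and 228 CPM in the others. The other 2 luminal progenitor gate genes lay apart in opposite directions. Csn3 was lower, at 4431, 2792 and 4369 CPM in members and 6248, 4570 and 6189 CPM in the others. Aldh1a3 was higher, at 68.5, 131 and 104 CPM in members and 58.4, 59.1 and 59.2 CPM in the others. The gate genes chose the cells, so their values are a description.

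The 4 marker genes were present at low levels in single cells. Tnf (chromosome 17, 35199381 to 35202007, minus strand, mm10) stood at 165, 264 and 327 CPM in members and at 25.1, 112 and 135 CPM in other luminal progenitor cells. Cxcl2 (chromosome 5, 90903871 to 90905938, plus strand) stood at 209, 300.1 and 563 CPM in members and at 25.4, 78.1 and 119 CPM in the others. Library 1 was the lowest of the 3 for both genes in both groups of cells. Esm1 (chromosome 13, 113209659 to 113218098, plus strand) stood at 150.4, 189 and 193 CPM in members and at 20.7, 46.9 and 50.03 CPM in the others. Cytip (chromosome 2, 58129137 to 58195532, minus strand) stood at 160.2, 163 and 142 CPM in members and at 35.1, 44.3 and 38.0 CPM in the others, and it varied least between libraries. These levels follow from the rule and were not tested.

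Most members met the rule with a pair of markers. Of luminal progenitor cells, 4183 carried none of the 4 genes, 2588 carried 1, 997 carried 2, 275 carried 3 and 38 carried all 4. Tnf with Esm1 was the commonest combination (238 members, 20.6%), followed by Tnf with Cxcl2 (232, 20.1%) and Tnf with Cytip (175, 15.1%). Tnf and Cxcl2 were found together, with or without a further marker, in 404 members (34.9%), and all 4 genes in 35. A further 154 luminal progenitor cells carried at least 2 of the genes but had caseins at 3% of UMIs or more. At this edge, 70 members had caseins between 2% and 3%, and 54 cells left out had between 3% and 4%. Cxcl2 was the gene with the largest numbers in single members: 5 or more Cxcl2 UMIs were counted in 11, 27 and 147 members of libraries 1, 2 and 3, and the highest count in a cell was 32. The same count was reached for Tnf in 1, 5 and 17 members, and the highest was 9 UMIs.

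Members made up 4.41% of luminal progenitor cells in library 1 (95% Clopper-Pearson interval 3.72 to 5.17), 17.7% in library 2 (15.9 to 19.7) and 22.4% in library 3 (21.0 to 23.9), a mean of 14.9% ± 9.35 (SD, n = 3). The intervals cover counting error only and do not overlap between library 1 and the others. Detection follows depth: in library 3 the share was 7.73% among cells of under 2000 UMIs and 56.8% among cells of 7000 or more. After each cell was thinned to 2000 UMIs, members made up 1.94%, 9.51% and 13.9% of luminal progenitor cells (mean 8.44% ± 6.03). Thinning left out 6, 13 and 35 members and 746, 249 and 418 other luminal progenitor cells, and library 1 remained the lowest. The libraries are replicates with no contrast between them, so their shares were not tested. With a gate of at least 1 marker the mean share was 43.5%, and with at least 3 markers it was 3.66%.

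The 4 genes were more often detected in luminal progenitor cells than in basal or hormone-responsive cells gated on their own markers. At 2000 UMIs per cell, Tnf was detected in 5.83%, 25.5% and 28.6% of luminal progenitor cells, against 1.93%, 1.70% and 3.19% of basal and 1.64%, 2.103% and 3.18% of hormone-responsive cells. Cytip was detected in 7.98%, 11.7% and 11.8% of luminal progenitor cells and in at most 1.24% of either other class. Cxcl2 was the exception to this order in library 1, where it was detected in 2.59% of luminal progenitor cells and in 8.40% of basal cells. Before thinning, median depths were 2855 to 3738.5 UMIs in luminal progenitor, 1763 to 2203 UMIs in basal and 3302.5 to 3811 UMIs in hormone-responsive cells, and Tnf was detected in 8.16%, 36.8% and 39.4% of luminal progenitor and 1.67%, 2.09% and 2.55% of basal cells. The part of free RNA in these low shares was not tested.

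**Figure D1:**
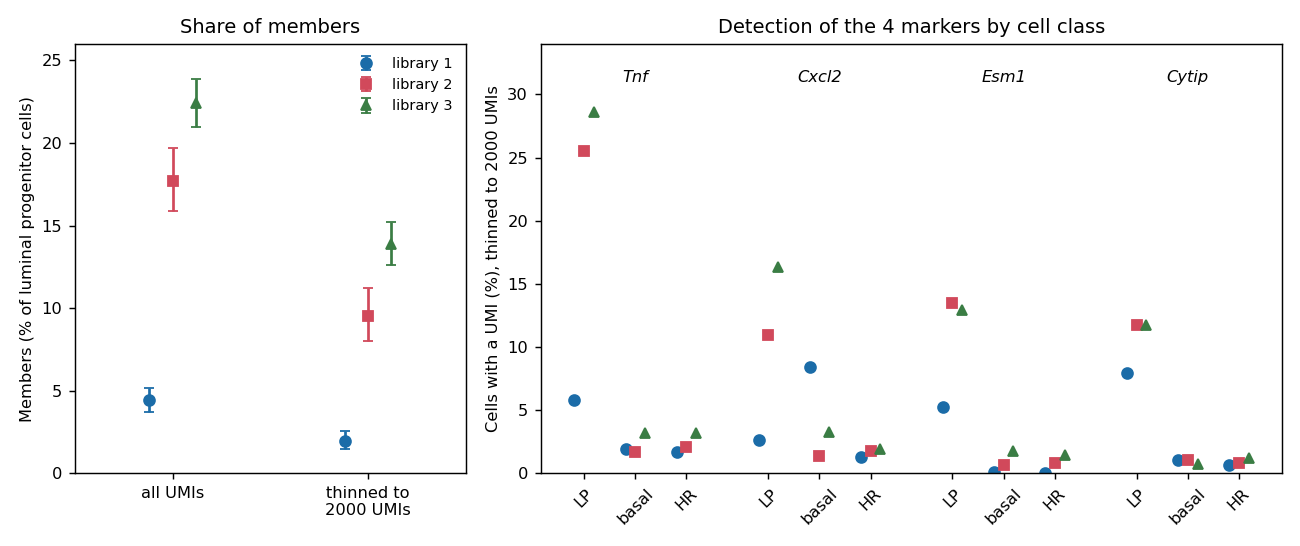
Left, members as percent of luminal progenitor cells per library (points) with 95% Clopper-Pearson intervals (bars), with all UMIs and at 2000 UMIs per cell. Right, percent of luminal progenitor (LP), basal and hormone-responsive (HR) cells with a UMI of each marker at 2000 UMIs per cell. Library 1 is lowest in members at 4.41%, and Cxcl2 in library 1 is the only case in which basal cells (8.40%) lie above luminal progenitor cells (2.59%).

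How far the markers go together was described by leaving each out of the gate in turn and reading its level in cells with at least 2 of the other 3, against the rest of the luminal progenitor cells with caseins under 3%. Tnf stood at 59.1, 205 and 240 CPM in cells gated on the other markers and at 34.2, 146 and 186 CPM in the rest, which is 1.73, 1.401 and 1.29 times as high. Cxcl2 was 1.33, 1.75 and 1.27 times as high and Esm1 1.45, 1.28 and 1.12 times as high. Cytip stood at 43.9, 102 and 91.6 CPM against 43.7, 77.4 and 61.0 CPM, so library 1 showed a ratio of 1.00. With TMM scaling and all other luminal progenitor cells in place of those under 3% caseins, Cytip in library 1 turned, at 41.9 CPM in gated cells and 45.2 CPM in the rest. With cells of all depths, no ratio reached 2. Counts in library 1 were small, at 23 UMIs of Tnf and 16 of Cytip in the gated cells. Within cells of 3000 to 6000 UMIs the ratios ran between 1.11 and 2.20. The 4 genes were proposed from a clustering of these same cells, so these ratios are a description with no test.

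**Figure D2:**
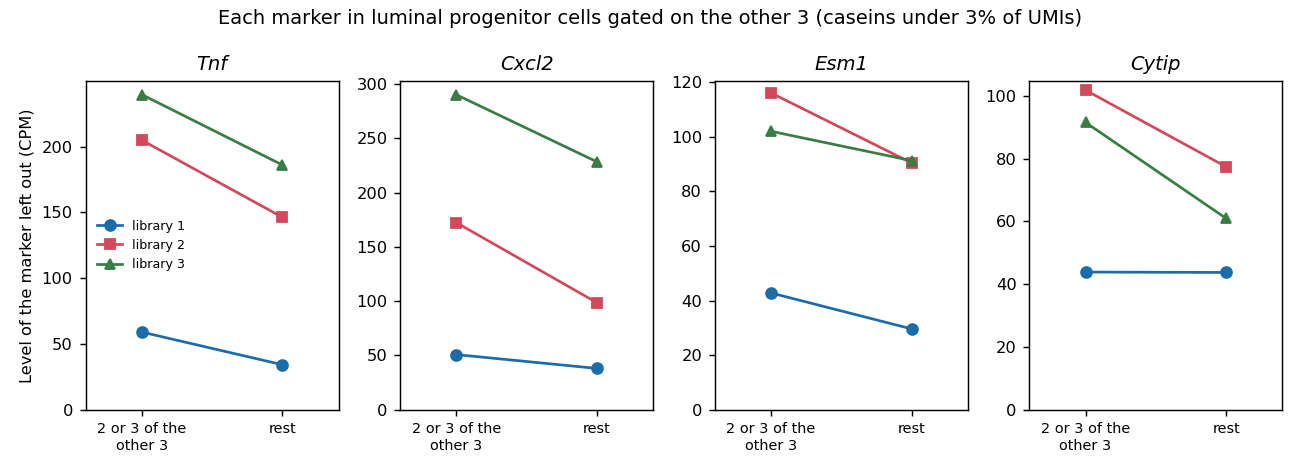
Level of each marker (CPM, counts scaled by total) in luminal progenitor cells with 2 or 3 of the other 3 markers and in the rest of those with caseins under 3% of UMIs, with 1 line per library. The gated cells are higher, but for Cytip in library 1, which is level at 43.9 and 43.7 CPM.

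Counts were summed per library over members and over other luminal progenitor cells, and edgeR compared the 6 sums with a term for each library. The 4 markers were proposed from a clustering of these same cells, so genes that vary with them were in view. A low p-value for such a gene is no independent support. A call needed both an edgeR adjusted p (Benjamini-Hochberg) under 0.05 and a log2 fold change of 0.5 or more in size, and the 20 genes of the gate were not tested. Of 11070 genes, 151 were called (1.36%), of which 69 were higher (0.623%) and 82 lower (0.741%) in members. These shares are the background for the count of each gene list below. At an unadjusted p under 0.05 there were 1338 genes. All 6 values of the members' libraries and the others' libraries were apart, with members above, for 233 genes (2.1%), and with members below for 440 genes (3.97%). With total counts in place of TMM scaling, 134 genes were called, 85 higher and 49 lower, so the balance of directions depends on the scaling. Of the 151 genes, 30 were also called without library 2, and DESeq2 called 32 of the 151. Some of the 151 got no adjusted p from DESeq2, among them 6 of the 15 genes with the largest rise. Without the term for library, that is, with the pairing ignored, edgeR called 0 genes (114 at an unadjusted p under 0.05). Below, levels are CPM after TMM normalisation, which corrects for composition, unless stated, and the error of a fold change is the SD of its 3 within-library log2 ratios.

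Among chemokine and NF-kappaB genes outside the gate, Cxcl1, Cxcl16, Ccl20, Nfkbia and Ier3 were called higher, and Il15 and Tnip3 lower. Of 18 chemokines and cytokines tested, 3 were higher, 1 was lower and 14 were not called, beside 0.623% higher and 0.741% lower of all genes. The median log2 fold change was -0.04 beside -0.03 for all genes. Cxcl1, a chemokine that shares the receptor of Cxcl2 (chromosome 5, 90891241 to 90893115, plus strand), stood at 630, 460 and 894 CPM in members and at 151, 294 and 520 CPM in other luminal progenitor cells. It was higher in members in each library, although library 2 members lay below library 3 others. The log2 fold change was 1.13 ± 0.78 (edgeR adjusted p = 8.2e-11), and it was 0.72 without library 1. DESeq2 did not call Cxcl1 (adjusted p = 0.51), while 18 of 20 alternatives did, with adjusted p over all of them between 7.6e-39 and 1.00. Cxcl16, a membrane-anchored chemokine, stood at 73.4, 88.3 and 104 CPM in members and at 42.9, 55.7 and 84.0 CPM in the others (log2 fold change 0.50 ± 0.24, edgeR adjusted p = 0.0011). It was not called without library 1 (0.43, on size) or library 2 (0.45). Without library 2, 1 gene of the list was higher and 0 lower.

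The other called cytokines rested on less. Ccl20, the ligand of the receptor Ccr6, had no count in the members of library 1, where 3 counts would be 3.86 CPM, and stood at 166 and 27.6 CPM in members of libraries 2 and 3, against 1.24, 47.5 and 18.5 CPM in the others. Its log2 fold change of 1.31 ± 1.92 (edgeR adjusted p = 1.4e-08) came with opposite signs between libraries and was 0.51, and not called, without library 2. Il15, a cytokine that sustains natural killer and T cells, was lower, at 8.56, 6.35 and 4.56 CPM in members and 16.4, 10.99 and 11.6 CPM in the others. The groups did not overlap (log2 fold change -1.10 ± 0.27, edgeR adjusted p = 0.0092), but Il15 lost its call without library 2 (-1.21) and without library 3 (-0.83).

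Of 33 NF-kappaB regulators and targets tested, 2 were higher, 1 was lower and 30 were not called. Over all genes, 0.623% were higher and 0.741% lower. The list's median was 0.17 beside -0.03 for all genes, and 25 of its genes had a positive log2 fold change. Without library 2, 0 were called by edgeR (9 at an unadjusted p under 0.05), and without library 3, 5 were higher. Nfkbia stood at 1282, 2725 and 3289 CPM in members and at 619.9, 1992 and 2631 CPM in the others. It was higher in members of each library (log2 fold change 0.60 ± 0.39, edgeR adjusted p = 1.1e-06), with a call lost without library 2 (0.69) and, on size, without library 1 (0.38). Ier3, an early stress-response gene, stood at 797, 1369.7 and 2120.3 CPM in members and at 233, 1523 and 1921 CPM in the others, so library 2 went against libraries 1 and 3. It was called at 0.53 ± 1.04 (edgeR adjusted p = 0.013), but in only 4 of 20 alternatives, and its log2 fold change was 0.00 without library 1. Tnip3, which binds the NF-kappaB inhibitor Tnfaip3, was lower at -1.11 ± 1.20 (edgeR adjusted p = 0.0018), with a higher value in members of library 1 and no call without library 2 (-0.97) or library 3 (-1.47).

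Promoters of the 4 rule markers and of Cxcl1, Cxcl16, Ccl20, Nfkbia and Ier3, all called higher, were searched. Il15 and Tnip3, called lower, were not. The search was for the 10-base kappaB consensus, the sequence that NF-kappaB binds, on both strands of the 250 bases before the RefSeq start (GRCm38.p6). Of 9 genes looked up, 8 had an entry, and 5 of these held a match: Cxcl2, Cxcl1, Nfkbia, Ccl20 and Ier3. Over all 32851 promoters, 2382 (7.25%) held one. The 9 genes were chosen by the rule or after their rise was seen, so this is a description and was not tested. Tnf, Esm1 and Cytip had no match in this window, which says nothing about sites outside it. The motif TGANTCA of AP-1, on both strands, was in none of the 8 windows and in 6.75% of all promoters. The 150 bases before the start are shown for the gate chemokine, its called neighbour and the inhibitor, chosen because Cxcl2 is in the rule and, of the 4 called genes with a match, Cxcl1 and Nfkbia were higher in members of each library. Each is written along its gene's strand, and capitals mark the match. In Cxcl2 and Cxcl1 a match on each strand overlaps and both are capitalised together. The match lies 97 to 88 bases before the start in Cxcl2 (chr5:90903749-90903898, plus strand), 71 to 62 in Cxcl1 (chr5:90891095-90891244, plus strand) and 29 to 20 in Nfkbia (chr12:55492648-55492797, minus strand).
Cxcl2: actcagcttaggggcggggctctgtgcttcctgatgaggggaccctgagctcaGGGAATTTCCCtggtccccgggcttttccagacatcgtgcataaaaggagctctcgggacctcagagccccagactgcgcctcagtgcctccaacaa
Cxcl1: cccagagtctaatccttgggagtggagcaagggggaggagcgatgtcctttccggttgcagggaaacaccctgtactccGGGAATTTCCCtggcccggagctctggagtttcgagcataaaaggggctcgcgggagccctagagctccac
Nfkbia: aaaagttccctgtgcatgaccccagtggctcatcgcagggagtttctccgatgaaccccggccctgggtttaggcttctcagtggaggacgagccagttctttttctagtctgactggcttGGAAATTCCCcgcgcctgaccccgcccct

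TNF ligands and receptors outside the gate gave no call. Of 22 measured, the gate gene Tnf among them, 10 outside the gate passed the filter and were tested. Of these, 0 were called by edgeR (0 also at an unadjusted p under 0.05, and 0 by DESeq2), with a median of 0.00. The most abundant of them, Tnfrsf12a, the receptor of the ligand Tweak, stood at 66.0, 81.2 and 138 CPM in members and 60.1, 79.9 and 118 CPM in the others (log2 fold change 0.15 ± 0.10, edgeR adjusted p = 0.58). Over all 11070 genes, 1.36% were called and 1338 had an unadjusted edgeR p under 0.05. Of 28 immediate-early genes, which respond within minutes to stress or growth factors, 0 were called by edgeR and 0 by DESeq2. The median of these 28 was 0.04, and 12 had an unadjusted edgeR p under 0.05, a larger part than of all genes. Fos, their most abundant member, stood at 2625, 3632 and 5342 CPM in members and at 1801, 4233 and 5449 CPM in the others (0.09 ± 0.40). The order of members and others thus differed between library 1 and the other libraries. Without library 1, 1 immediate-early gene was lower, and without library 3, 2 were higher. Of 16 heat shock genes, 0 were called by edgeR and 0 by DESeq2 (3 at an unadjusted edgeR p under 0.05; median 0.05), with the chaperone Hsp90ab1 at 3135, 2332 and 2311 CPM in members and 2808, 2332 and 2236 CPM in the others. Of 15 genes of ERK feedback and ErbB ligands, Ier3 was higher and the ERK phosphatase Dusp5 lower (-0.54 ± 1.14, edgeR adjusted p = 0.0092). Dusp5 was higher in members of library 1, at 64.8 against 27.8 CPM, and stood at 0.00 without library 3.

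Several other called genes belong to the cytoskeleton or the cell membrane, a grouping made after their values were seen and not tested. Tagln2, an actin-binding protein, stood at 132, 184 and 138 CPM in members and at 84.0, 77.9 and 77.8 CPM in other luminal progenitor cells. All members' libraries lay above all others' libraries, and the log2 fold change was 0.92 ± 0.30 (edgeR adjusted p = 5e-11). Tagln2 was called in 19 of 20 alternatives, all but the fit without the library block. It also stood at 450.2, 197 and 256 CPM in basal and at 342, 542 and 543 CPM in hormone-responsive cells, against 139, 195 and 135 CPM in members on the same scale by total counts. Both classes lay above the members, basal cells of library 2 only slightly, and the part of their RNA in this result was not tested. Tubb2b, a beta-tubulin whose reads may be split with close relatives, stood at 30.6, 89.7 and 77.7 CPM in members and 15.1, 39.8 and 52.0 CPM in the others (0.83 ± 0.30, edgeR adjusted p = 1.1e-06). Dclk1, a kinase that binds microtubules, stood at 52.6, 57.9 and 44.03 CPM in members and 32.5, 28.0 and 27.0 CPM in the others, with no overlap (0.81 ± 0.20, edgeR adjusted p = 1.1e-05). Sdpr, a coat protein of caveolae, also showed no overlap (0.83 ± 0.15, edgeR adjusted p = 0.00021). Without library 2, Tubb2b (0.65), Dclk1 (0.70) and Sdpr (0.77) were not called.

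The remaining rises among the 15 largest were of mixed function. Slc5a8, a transporter of lactate and short-chain fatty acids, stood at 50.1, 103 and 66.8 CPM in members and 46.9, 51.5 and 31.2 CPM in the others (0.85 ± 0.55, edgeR adjusted p = 6.5e-07). Wnt7b, a Wnt ligand, stood at 30.6, 28.2 and 17.6 CPM in members and 21.9, 11.4 and 9.54 CPM in the others (0.88 ± 0.40, edgeR adjusted p = 0.0013). Ccdc141 stood at 57.5, 28.9 and 48.0 CPM in members and 35.0, 17.2 and 23.2 CPM in the others (0.89 ± 0.18, edgeR adjusted p = 5.3e-06). Ccdc141 was higher in members of each library, and it kept its call without each library in turn. Gdpd1 (0.88 ± 0.15) and Lhfpl2 (0.84 ± 0.26) were also called. Of the 15 genes, 4 were called without library 2, which were Hist1h2ak, Cxcl1, Tagln2 and Ccdc141. The other 11 then had edgeR adjusted p-values between 0.058 and 0.38. Without library 3, 12 were called, and without library 1 all 15. Against others with caseins under 3%, 12 were called, and Gdpd1, Wnt7b and Ung were not. In cells of 3000 to 6000 UMIs, 9 were called, and Lhfpl2 was among those that were not.

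**Figure D3:**
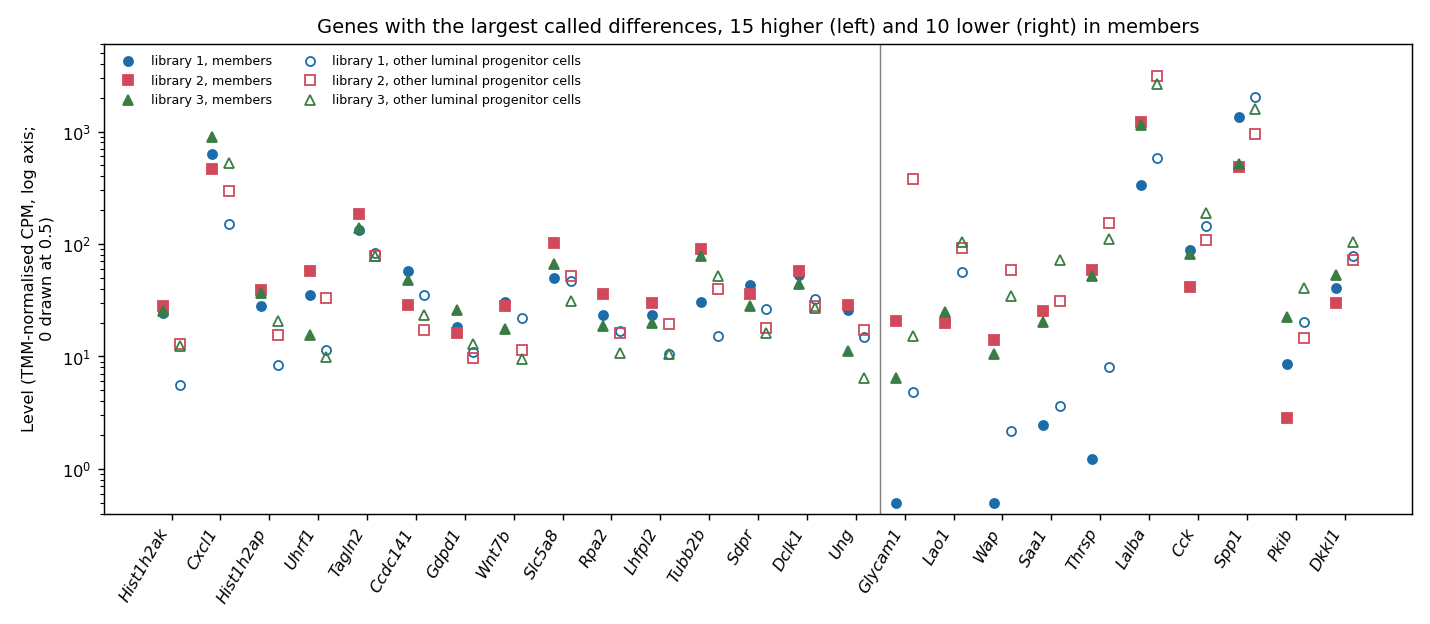
Levels (TMM-normalised CPM, log axis, 0 drawn at 0.5) of the 15 genes with the largest called rise and the 10 with the largest called fall, with filled points for members and open points for other luminal progenitor cells of each library. Tagln2 shows members at 132 to 184 CPM above others at 77.8 to 84.0 CPM, and Lao1 shows members at 19.8 to 24.9 CPM below others at 56.7 to 104 CPM.

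Rspo1, a secreted amplifier of Wnt signalling (chromosome 4, 124986430 to 125009099, plus strand), was the called rise among luminal progenitor genes outside the gate. It stood at 122, 309 and 123 CPM in members and at 60.5, 201 and 81.1 CPM in the others (log2 fold change 0.70 ± 0.23, edgeR adjusted p = 3.6e-08). Members were higher in each library, and Rspo1 was called in 18 of 20 alternatives, among them those without each library. Of the 4 tested genes of its list with connexins, it alone was called. Scara5, a ferritin receptor, was not called, at 186, 19.8 and 48.3 CPM in members and 189.7, 24.6 and 32.7 CPM in the others (0.16 ± 0.44, edgeR adjusted p = 0.66). Of 31 luminal progenitor genes outside the gate, 1 was higher, 4 were lower and 26 were not called, with a median of -0.11. Over all genes, 0.623% were higher and 0.741% lower. Without library 2, 2 of the 31 were lower. Folr1, a folate receptor, stood at 74.6, 89.7 and 149 CPM in members and 121, 168 and 260.4 CPM in the others (-0.81 ± 0.10, edgeR adjusted p = 5.4e-10). Itgb3, the integrin beta-3 chain, stood at 14.7, 35.3 and 45.9 CPM in members and 22.04, 70.3 and 72.9 CPM in the others (-0.76 ± 0.22, edgeR adjusted p = 2.3e-05). Against others with caseins also under 3%, Folr1 stood at -0.43 and Itgb3 at -0.42, and neither was called, Folr1 on size alone. Without library 2 Itgb3 stood at -0.67 and was not called.

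Milk genes made up most of the largest falls, and the rule bears on them, since members were capped at 3% caseins and the others were not. Of 19 milk genes outside the gate, 10 were lower, beside 0.741% of all genes, and 0 higher. Their median was -0.62, and 6 were lower without library 2. Against others with caseins also under 3%, called casein-matched here, 48 of 10690 genes were called (0.449%, with 0.29% higher and 0.159% lower). Of 18 milk genes, 4 were then lower and the median was -0.37. These 4 were Lao1, Lalba, Spp1 and Thrsp. The shared cap did not equalise milk gene levels, and in library 1 it left out only 5 cells. Lao1, a secreted amino-acid oxidase, stood at 20.8, 19.8 and 24.9 CPM in members and at 56.7, 92.9 and 104 CPM in all others (-2.02 ± 0.41, edgeR adjusted p = 2.6e-18), and it was -0.75 against the casein-matched others. Lalba, the alpha-lactalbumin of lactose synthesis, stood at 333, 1219 and 1151 CPM in members and 583, 3107 and 2663 CPM in the others (-1.15 ± 0.28, and -0.65 against casein-matched others, edgeR adjusted p = 7.3e-08). Casein-matched others held 587, 1898 and 1705 CPM of Lalba. Spp1, the secreted phosphoprotein osteopontin, stood at -0.68 and the lipogenic regulator Thrsp at -0.60 against casein-matched others. Glycam1, a mucin-like milk protein, had no count in members of library 1 and 20.5 and 6.38 CPM in members of libraries 2 and 3, against 4.84, 379 and 15.2 CPM in all others. Glycam1 fell by 3.47 on the log2 scale against all others, but stood at -0.60, not called, against casein-matched others, and at -1.41, not called, without library 2. The whey acidic protein gene Wap was likewise called against all others (-1.85 ± 0.49) and not against casein-matched others (-0.34).

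Outside the milk list, Cck and Dkkl1 were lower in members also against others with caseins under 3%. Cck, which encodes the peptide hormone cholecystokinin, stood at 88.0, 41.7 and 82.3 CPM in members and at 143, 109 and 188 CPM in all others, with no overlap (-1.12 ± 0.35, edgeR adjusted p = 1.5e-12), and at -0.67 against casein-matched others. Dkkl1, a secreted relative of the Dickkopf Wnt inhibitors, stood at 40.3, 29.7 and 53.1 CPM in members and at 78.6, 72.1 and 105 CPM in all others, with no overlap (-1.05 ± 0.18, edgeR adjusted p = 4.4e-10), and at -0.66 against casein-matched others. Both were called in 19 of 20 alternatives, all but the fit without the library block. Pkib, an inhibitor of protein kinase A, stood at -1.06 ± 0.71 against all others and at -0.53, not called, against casein-matched others. Of 17 antimicrobial and defence genes, 5 were lower, beside 0.741% of all genes, and 0 higher against all others. Their median was -0.32, and 2 were lower without library 3. Against casein-matched others 0 were called by edgeR (8 at an unadjusted edgeR p under 0.05, median -0.29). The calprotectin subunit S100a8 stood at 0 CPM, 3.53 and 3.04 CPM in members and 1.54, 17.4 and 16.5 CPM in all others. The acute-phase proteins Saa1 (-1.35 ± 0.82) and Saa2 (-1.67 ± 0.62), whose reads can be shared between close copies, were not called without library 3 (-0.33 and -1.21). The metallothioneins Mt2 (-0.76 ± 0.89) and Mt1 (-0.54 ± 0.93) were the called falls among 12 glucocorticoid-induced genes, and both were higher in members of library 1. Neither was called without library 2 (-0.40 and -0.16) or without library 3 (-0.53 and -0.33), nor against casein-matched others.

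Of 20 S-phase genes tested, 9 were higher, beside 0.623% of all genes, and 0 lower in members. This was not so among cells of like depth. The median was 0.53, and all 20 had a positive log2 fold change. Uhrf1, which maintains DNA methylation behind the replication fork, stood at 35.5, 57.9 and 15.5 CPM in members and 11.3, 33.2 and 9.91 CPM in the others (0.93 ± 0.53, edgeR adjusted p = 0.00017). Rrm2, a subunit of ribonucleotide reductase, stood at 15.9, 21.9 and 6.38 CPM in members and 4.43, 9.99 and 4.04 CPM in the others (1.14 ± 0.57, edgeR adjusted p = 0.0068). Both were higher in members of each library, although the libraries overlap. The checkpoint adaptor Clspn (0.96 ± 0.56, edgeR adjusted p = 0.045) and the repair enzyme Ung (0.77 ± 0.01, edgeR adjusted p = 0.013) were also called, Clspn not without library 1 (0.81) and Ung not without library 3 (0.78). Subunits of the MCM replicative helicase, named after their values were seen, made up 4 of the 9, with log2 fold changes of 0.61 to 0.76. Outside the list, Rpa2, which coats single-stranded DNA, was 0.85 ± 0.35, and the replication-dependent histones Hist1h2ak (1.25 ± 0.58) and Hist1h2ap (1.13 ± 0.45) were called too, but are near-identical gene copies, so their counts are uncertain. In cells of 3000 to 6000 UMIs, Rpa2 (0.62), Hist1h2ak (0.33) and Hist1h2ap (0.40) were not called. Within cells of 3000 to 6000 UMIs, where 131 of 10076 genes were called (1.3%; 0.516% higher and 0.784% lower), 0 S-phase genes were called by edgeR (1 at an unadjusted p under 0.05), the median was 0.22, Uhrf1 stood at -0.13 and Rrm2 at -0.15. Without library 2, 0 S-phase genes were called by edgeR (10 at an unadjusted p under 0.05), with a median of 0.37, and without library 1 or library 3, 7 were. DESeq2 called 1 of the 20, with 11 at an unadjusted DESeq2 p under 0.05, and it gave Rrm2, Clspn and Ung no adjusted p. Against casein-matched others 3 were called, with a median of 0.47. Members held a median of 1852, 1832 and 1659 genes per cell and the others 1266, 1582 and 1407, and the part of depth in the S-phase result was not tested beyond the depth-matched values. Of 20 genes of G2 and M phase, Top2a was higher (0.57 ± 0.48) and the spindle protein Tpx2 lower (-0.86 ± 0.33), with a median of -0.10. Top2a lost its call without library 1 (0.44) and without library 2 (0.41), and Tpx2 without library 2 (-0.78) and without library 3 (-0.97).

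Integrins, with 2 of 20 called lower beside 0.741% of all genes, and lists with no call make up the rest. Of 20 integrins and matrix receptors, Itgb3 and the hyaluronan receptor Cd44 were lower (Cd44 100.2, 42.4 and 48.6 CPM in members and 159.8, 58.9 and 71.9 CPM in the others; -0.58 ± 0.10, edgeR adjusted p = 0.00014) and the median was 0.03. Cd44 stood at -0.60 without library 2, where it was not called. The remaining lists had 0 calls by edgeR and 0 by DESeq2 each, and 0 to 6 genes a list at an unadjusted edgeR p under 0.05. They were 12 endothelial tip and hypoxia genes (median -0.11), 6 cytohesin pathway genes (-0.07), 14 genes of MHC class I presentation (-0.15) and 2 of class II (-0.06). Further lists were 11 interferon-stimulated genes (-0.15), 19 tight junction and polarity genes (0.01) and 6 D cyclins and inhibitors (-0.21). The last were 15 apoptosis and survival genes (-0.01) and the 2 genes of the Scara5 list (-0.14). The 6 genes were in MHC class I presentation, where 1 of the 14 had a positive log2 fold change. Over all 11070 genes, 1338 had an unadjusted p under 0.05 and 1.36% were called. In lists of 2 to 19 genes, 0 calls is near that share. Examples were the hypoxia-induced enzyme Ldha (337 ± 36.0 CPM in members and 425 ± 103 CPM in the others), the GTPase Arf1 (319 ± 20.4 and 344 ± 14.3 CPM), the class I molecule H2-D1 (1220.3 ± 539 and 1334 ± 646 CPM), the adhesion molecule Epcam (1257 ± 147 and 1319 ± 197 CPM), the cyclin Ccnd1 (417 ± 121 and 333 ± 88.7 CPM) and the survival protein Mcl1 (293 ± 139.8 and 293 ± 154 CPM). These values are means ± SD of levels over the 3 libraries, and that SD ignores the pairing. As log2 fold changes with the SD of within-library ratios, H2-D1 stood at -0.11 ± 0.08 and Arf1 at -0.11 ± 0.03. Epcam stood at -0.06 ± 0.08 and Mcl1 at 0.02 ± 0.17. Ldha and Ccnd1 had edgeR adjusted p = 0.016 each but log2 fold changes of -0.33 ± 0.22 and 0.31 ± 0.07, under the threshold of 0.5. The peptide-loading subunit H2-DMb1 stood at -0.17 ± 0.50 and the interferon-induced Ifi27 at -0.29 ± 0.01, neither of them called. Of the list of tip and hypoxia genes, which Esm1 belongs to, 2 were lower without library 1 and 1 was lower in cells of 3000 to 6000 UMIs.

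**Figure D4:**
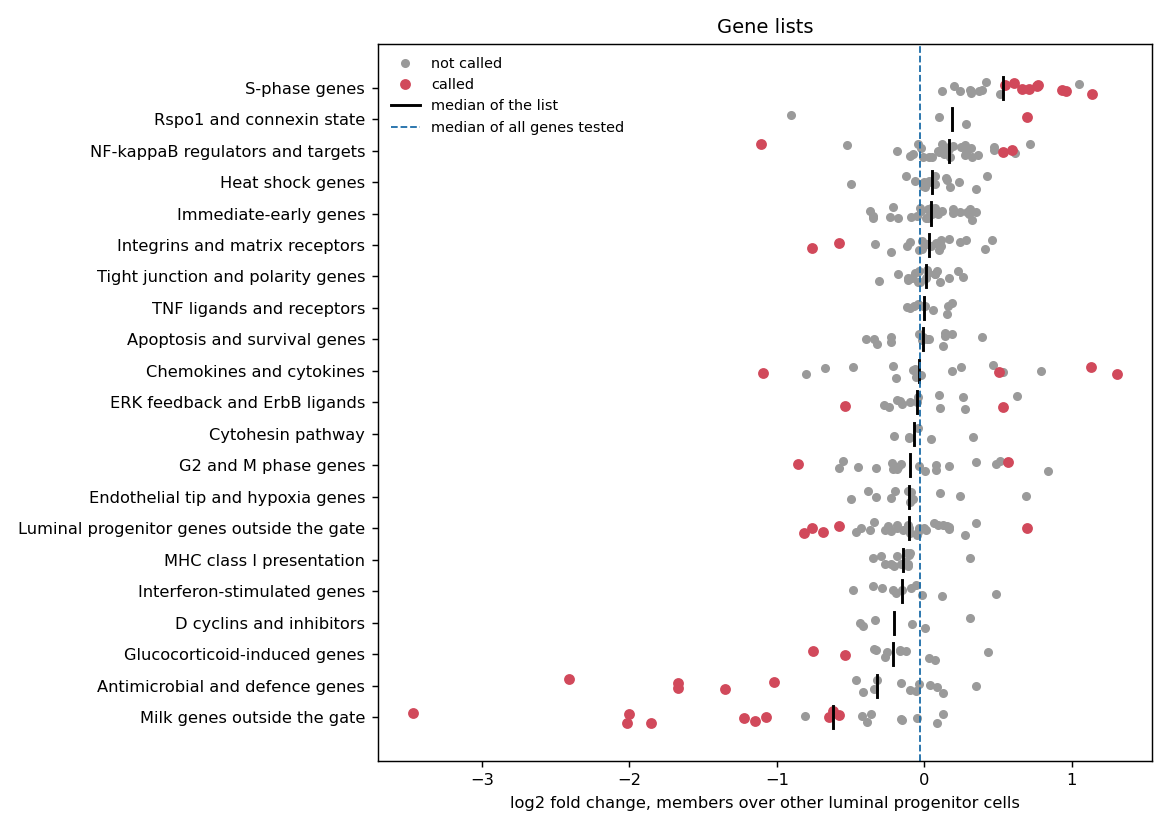
Log2 fold change of members over other luminal progenitor cells for each tested gene (points, red where called) of the lists with at least 4 tested genes, with the list's median (black) and the median of all genes tested (dashed, -0.03). Milk genes lie lowest, with a median of -0.62, and S-phase genes highest, with a median of 0.53.

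The values were also read by the number of markers in a cell, among luminal progenitor cells with caseins under 3%, for 6 genes chosen after their values were seen. These levels are CPM scaled by total counts, and they carry no test. Cells with more markers also held more UMIs on average in each library, and depth was not matched here. Cxcl1 averaged 253, 418, 645 and 720 CPM over the 3 libraries in cells with 0, 1, 2 and 3 or 4 markers, and Nfkbia averaged 1469, 1991, 2368 and 2912 CPM. Tagln2 averaged 75.6, 106, 148 and 192 CPM, and Rspo1 110, 149, 177 and 236 CPM. Nfkbia and Rspo1 increased at each step in all 3 libraries, while Cxcl1 in library 1 was 682 CPM with 2 markers and 521 CPM with 3 or 4, where only 14 cells were counted. Cck averaged 125, 97.9, 75.6 and 61.8 CPM and Lao1 42.7, 35.5, 24.4 and 19.9 CPM, both lower in the mean at each step.

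**Figure D5:**
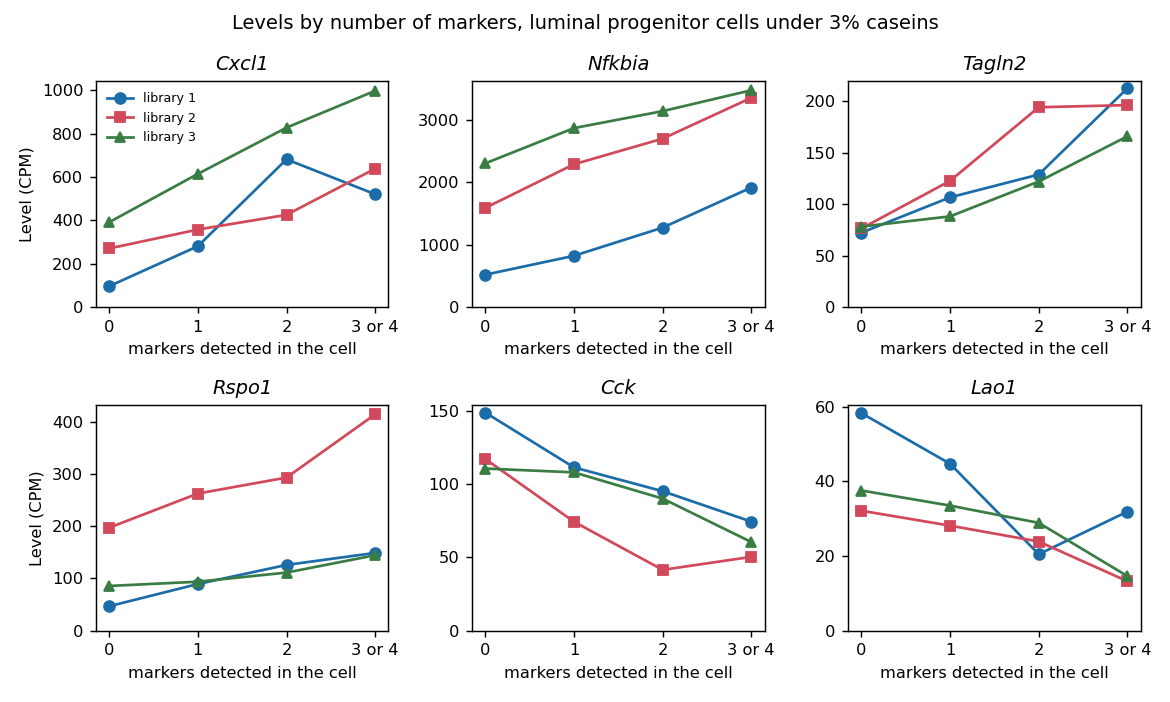
Level (CPM scaled by total counts) of 6 genes in luminal progenitor cells with caseins under 3% of UMIs, by the number of the 4 markers detected, with 1 line per library. Mean Nfkbia is 1469 CPM with 0 markers and 2912 CPM with 3 or 4, and mean Cck is 125 CPM with 0 markers and 61.8 CPM with 3 or 4. Cells with more markers were also deeper on average.

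Members differed among themselves by which marker they carried, read as CPM scaled by total counts. Those with a Cxcl2 UMI numbered 40, 115 and 396, and those without one 102, 170 and 333. Cxcl1 stood at 1207, 687 and 1089 CPM in members with Cxcl2 and at 452, 341 and 628 CPM in members without, so the chemokine pair went together inside the group in each library. Members without Cxcl2 still lay above the luminal progenitor cells with 0 markers, which had 96.6, 271 and 392 CPM of Cxcl1. Nfkbia stood at 2165, 3127 and 3371 CPM in members with Cxcl2 and at 1034, 2703 and 3079.7 CPM in members without. Members with Tnf numbered 85, 230 and 589 and those without 57, 55 and 140. Tagln2 stood at 107, 176 and 130 CPM in members with Tnf and 190, 289 and 162 CPM in members without, and Ccdc141 at 39.8, 22.4 and 43.4 CPM in members with Tnf and 93.3, 72.3 and 64.5 CPM in members without. Both genes were thus higher, in each library, in the members that lacked Tnf. None of these splits was tested, since the markers define them.

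Across classes, with CPM again scaled by total counts, Rspo1 and Cxcl1 differed in where else they were found. Rspo1 stood at 5.92, 24.9 and 12.1 CPM in basal and at 2.91, 10.3 and 5.19 CPM in hormone-responsive cells, below the luminal progenitor cells of the same library. Cxcl1 stood at 663, 486 and 881 CPM in members and at 779, 191 and 176 CPM in basal cells, so basal cells lay above members in library 1. Cxcl2 stood at 220.03, 317 and 555 CPM in members and at 161, 9.89 and 21.1 CPM in basal cells, again highest in library 1. The part of RNA from basal cells in the library 1 values of these chemokines was not tested.

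Most markers of immune and endothelial cells were at or near 0 in members, but not Ptpn18, Cd68 and Pecam1. Of the 8 pan-immune markers, the leukocyte gene Ptprc stood at 0, 0 and 0.304 CPM in members and 0, 0.200 and 0.245 CPM in the others. Ptpn18 made up nearly all of that list's sum, at 156, 107 and 165 CPM in members and 167, 148 and 160.5 CPM in the others, and was left out of the count of cells. A UMI of another pan-immune marker was found in 0.704%, 0% and 1.37% of members, against 0.260%, 1.21% and 1.03% of the others. For library 2 a count of 0 in 285 members allows a share of up to 1.05%. The 12 macrophage and dendritic markers summed to 3.67, 7.06 and 11.5 CPM in members and 2.99, 7.39 and 8.69 CPM in the others, and 4 of them were at 0 in members. A UMI of any was found in 2.11%, 3.51% and 4.66% of members and 0.779%, 2.72% and 2.42% of the shallower others. The 13 endothelial markers summed to 10.6 to 16.4 CPM in members and 13.4 to 20.4 CPM in the others. In members 4 of them, Cdh5 and Kdr included, were at 0. Pecam1, the gene of CD31, stood at 8.56, 2.82 and 7.90 CPM in members and 9.27, 5.19 and 7.22 CPM in the others. Any of the 13 was found in 5.63%, 4.56% and 6.86% of members and 4.51%, 4.84% and 5.11% of the others. The sort stained for CD45 and CD31, which mark these cells. Without any luminal progenitor cell with such a UMI, an alternative added after seeing the data, 45 genes were called higher and 56 lower, and 98 of these were among the 151. The highest doublet scores fell on 5.63%, 0.702% and 2.47% of members and 4.09%, 0.529% and 2.22% of the others, and 150 genes were called without those cells. The 12 basal markers outside the gate summed to 2720.2, 2660 and 2640.5 CPM in members and 3467, 3251 and 2943 CPM in the others, nearly all of it Igfbp5, a secreted binder of insulin-like growth factors. Without Igfbp5 the other 11 summed to 175, 397 and 277 CPM in members and 191, 381 and 282 CPM in the others. Hormone-responsive markers outside the gate summed to 37.9 to 114 CPM in members and 52.7 to 134 CPM in the others. Of these, Ly6a was called lower (-0.60 ± 0.17, edgeR adjusted p = 0.0027). It was not called against casein-matched others (-0.14), nor without library 2 (-0.58) or library 3 (-0.76). Fibroblast markers summed to 20.8 to 46.2 CPM in members against 18.4 to 43.4 CPM. Pericyte markers summed to 79.1 to 93.5 CPM in members against 79.3 to 95.9 CPM, nearly all of it Notch3. Notch3 stood at 83.1, 74.8 and 90.5 CPM in members and 93.7, 77.5 and 89.4 CPM in the others. Neutrophil markers summed to 0 to 3.53 CPM in members and 2.99 to 17.8 CPM in the others, with S100a8 the gene behind that difference. Erythroid markers summed to 4.89, 55.1 and 5.77 CPM in members and 3.30, 115 and 7.71 CPM in the others, highest in library 2.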

How the data were processed

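Single-cell RNA was counted in 3 droplet libraries of sorted mammary epithelial cells. The authors deposited raw UMI counts per gene and cell for 19050 genes, not normalized, made with Cell Ranger 2.1.0 on mm10, per the submitters' processing notes. No sample column was left unused (0 columns), and no deposited row lacked a gene name.

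Cells with at least 500 genes and under 10% mitochondrial UMIs were kept, and the gate was applied to each library alone. Doublets were scored with scanpy 1.11.5 and the highest scores, 0.8% per 1000 barcodes, were removed only in an alternative. Members and others were summed to 777150 to 10004529 UMIs. Sums were compared with the quasi-likelihood test of edgeR 4.0.16 (R 4.3.3; TMM, filterByExpr, prior count 2), adjusted over all genes tested. The library is a block because both sums come from the same library: their deviations correlated at 0.661, 0.549 and 0.647 within a library and at 0.0628 or less across libraries. On simulated counts of 11040 genes, 100% of 100 genes changed by a log2 fold of 1, and of 100 changed by 2, were recovered, with 11 false calls. Both sums of a simulated library shared the same library effect, and only well-counted genes were changed. The result thus says nothing on sparse genes or on differences that vary between libraries.

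Named genes were the 15 largest called rises and 10 largest called falls, with 1 sign in all libraries and a mean of at least 20 CPM, and from each list the leading called genes, or otherwise the most abundant. The members, the 4 markers and the gene lists were chosen with earlier results of these data known. Alternatives used DESeq2 1.42.0, other scalings, filters, gates, depths and left-out libraries. Gene coordinates are GENCODE M21, promoters RefSeq GRCm38.p6. Shares carry 95% Clopper-Pearson intervals, and a count of 0 is taken to allow 3. Both cover counting error only.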

Additional observations from a re-analysis of the deposited data

How the results depend on the processing

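Without the library block, which the pairing of the sums calls for, 0 genes were called by edgeR (0 higher, 0 lower; 114 at an unadjusted p under 0.05), against 151 with it. DESeq2 called 34 genes (17 higher, 17 lower), among them 5 milk genes and 1 defence gene lower, 1 S-phase gene and 1 NF-kappaB gene higher, and 0 chemokines (4 at an unadjusted p under 0.05). Leaving out a library gave 30 to 231 genes, 8 to 105 higher and 22 to 126 lower, lowest without library 2 and highest without library 1. Against others under 3% caseins 48 were called (31 and 17), and with sums thinned to the smallest total 71 (31 and 40). Gates without Esm1 gave 72 (30 and 42), without Cytip 48 (15 and 33) and without Tnf 130 lower. With total counts alone 49 were lower, with at least 10 counts in every sum 52 were lower, and 63.4% and 54.4% of calls were then higher, against 45.7%. Without cells carrying an immune or endothelial UMI, added after seeing the data, 45 were higher. A fold threshold of 1 on the log2 scale left 35 (12 and 23), and no fold threshold gave 274 (108 and 166). No scaling moved the median of all genes by over 0.1. The share of members was 43.5% with at least 1 marker and 3.66% with at least 3. Reversed values were Uhrf1 at -0.13 and Rrm2 at -0.15 in cells of 3000 to 6000 UMIs, Rrm2 at -0.24 in the gate without Tnf, Clspn at -0.062 with at least 3 markers, Tpx2 at 0.031 with at least 1 marker, and Dusp5, which ran between -0.81 and 0.0013 with a library left out. The cause was not tested. Of 44 called named genes, leaving out library 1, 2 or 3 removed the call of 5, 27 and 11. Depth limits which cells are found as members, and thinned to 2000 UMIs they were 8.44% of luminal progenitor cells.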
